A study of Mus musculus with 2 samples.

Results

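The CD28 family and the inhibitory receptors of T cells were examined in splenic regulatory T cells (Tregs), as the 9 genes Ctla4, Icos, Cd28, Pdcd1, Tigit, Lag3, Havcr2, Cd96 and Cd200. They were chosen by symbol, and all 9 were found among the 32285 features of the deposited matrices. A barcode entered if it had 300 genes or more and no more than 5% of its unique molecular identifiers (UMIs) on mitochondrial genes, which held for 8053 in the WT and 13767 in the KO library. The study asked what the zinc finger protein Zfp335 does in Tregs, and deposited 1 single-cell RNA library per genotype. WT mice carried the Foxp3-Cre allele alone, and KO mice were Zfp335 fl/fl Foxp3-Cre, so both genotypes carried the Cre allele. Its recombinase is a fusion with the yellow fluorescent protein (YFP) placed behind the Foxp3 coding sequence, so that deletion and YFP both follow Foxp3. All mice were 7 days old on the C57BL/6J background, and the cells were sorted as YFP+ and negative for the dead-cell dye 7AAD. The number of mice behind each library was not given.

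T cells need a second signal beside the antigen receptor, and CD28 gives it when it binds CD80 or CD86 on antigen-presenting cells. CTLA-4 competes for the same ligands and is one of the molecules with which Tregs restrain those cells, ICOS supports activated and effector Tregs, and PD-1 (Pdcd1), TIGIT, LAG-3 and TIM-3 (Havcr2) damp T cell responses. CD96 shares nectin-type ligands with TIGIT, and CD200 is itself a ligand, which acts on myeloid cells through CD200R.

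The genes lie on 4 chromosomes of the mouse (GRCm38, GENCODE M21 annotation). Cd28 (chr1:60716800-60773359, plus strand), Ctla4 (chr1:60887000-60915832, plus) and Icos (chr1:60977927-61000320, plus) form a row in which no other protein-coding gene lies between neighbours, with gaps of 113640 and 62094 bases. Pdcd1 is on the same chromosome at chr1:94038305-94052553 (minus). Cd200 (chr16:45382135-45409053, minus), Cd96 (chr16:46035657-46120251, minus) and Tigit (chr16:43648867-43664146, minus) share chromosome 16, Lag3 is at chr6:124904361-124911705 (minus) and Havcr2 at chr11:46454935-46481255 (plus). None of the 9 overlaps another listed gene on either strand.

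Promoter sequence is shown for Ctla4, Pdcd1 and Cd96, whose KO to WT ratios over all T-lineage barcodes were near 1, below 1 and above 1. Each line gives the 250 bases before the RefSeq start site on the gene's own strand (RefSeq, GRCm38.p6), at chr1:60908775-60909024, chr1:94052554-94052803 and chr16:46120249-46120498, with motif matches in capitals. The Ctla4 start site lies inside the longer gene span of the annotation above.
Ctla4: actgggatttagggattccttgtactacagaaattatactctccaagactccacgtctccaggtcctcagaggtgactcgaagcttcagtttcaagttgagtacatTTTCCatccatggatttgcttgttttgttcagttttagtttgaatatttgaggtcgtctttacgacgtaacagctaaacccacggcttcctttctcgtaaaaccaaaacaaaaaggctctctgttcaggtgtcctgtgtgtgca
Pdcd1: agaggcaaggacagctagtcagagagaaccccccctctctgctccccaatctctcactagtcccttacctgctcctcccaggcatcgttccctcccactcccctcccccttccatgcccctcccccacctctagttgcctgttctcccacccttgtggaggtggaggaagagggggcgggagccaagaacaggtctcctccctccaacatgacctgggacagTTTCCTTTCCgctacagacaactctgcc
Cd96: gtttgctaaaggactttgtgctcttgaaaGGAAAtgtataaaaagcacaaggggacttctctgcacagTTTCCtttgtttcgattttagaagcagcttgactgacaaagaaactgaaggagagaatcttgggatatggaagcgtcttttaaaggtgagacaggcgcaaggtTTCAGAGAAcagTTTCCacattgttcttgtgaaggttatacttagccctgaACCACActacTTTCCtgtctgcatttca
Both strands were searched for 4 motifs of T cell factors: AP-1 (TGANTCA), the NFAT core (GGAAA), STAT (TTCNNNGAA) and RUNX (TGTGGT). The capitals mark 1 NFAT core in Ctla4 and 2 in Pdcd1, whereas Cd96 held 4 NFAT cores, 1 STAT and 1 RUNX match. Of the other genes with a promoter entry, Havcr2 held 1 AP-1 and 1 RUNX match, and Cd200 none of the 4. The Tigit entry was not used, because its end was not found near the start of the gene's annotated transcripts. Over 27025 promoters of this length, 55.6% held the NFAT core, 14.2% the RUNX, 7.18% the STAT and 6.87% the AP-1 motif, so the NFAT core in particular is common. A match describes the letters and is not a bound site.

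The deposited libraries held 64567991 UMIs in WT and 65480052 in KO, and 70 barcode sequences occurred in both, 25 of them among the kept barcodes. After removal of barcodes with high doublet scores, 7826 WT barcodes (median 5056 UMIs) and 12779 KO barcodes (median 2717) remained. Of these, 7269 and 12036 fell into T-lineage clusters, in which Cd3e was at 427 UMIs per 1000000 UMIs (CPM) in WT and 400 in KO, and Foxp3 at 40.6 and 44.2. Cd8a was at 0.425 and 0.575 CPM. Zfp335 itself was at 8.25 CPM in WT and 0.842 in KO, a ratio of 0.102 (0.0721 to 0.141). With 1 library per genotype there were no replicates and no test was possible, and every interval below is a 95% interval of counting error only.

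T cell states were taken from clusters found without the 9 genes, and were named by marker genes. Resting-like barcodes (Ccr7, Lef1 and other quiescence genes) numbered 2176 in WT and 4523 in KO, activated-like barcodes (Tnfrsf9, Nr4a1 and other response genes) 658 and 1205, and cycling-like barcodes 616 and 980, the deepest, with medians of 14614.5 and 8407 UMIs. Effector-like barcodes (S100a4, Klrg1, Itgae and others) numbered 1646 in WT and 65 in KO, and cycling effector-like barcodes 573 and 21. Of the markers listed for each state, 8 of 9 were raised in the resting-like and 12 of 12 in the effector-like cluster. In the activated-like cluster only 7 of 12 were raised, so that name rests on part of its list. Only 1 of these 12 was among the leading genes of that cluster, which began with Lad1, Nefh and Asns. In the cycling-like cluster 10 of 12 S-phase and 12 of 12 G2/M markers of the cell cycle were raised. There 7 of 12 effector markers were raised as well, so that state was not free of effector-marked barcodes. The remaining T-lineage barcodes fell into 4 shallow clusters that were left unnamed. Because 1 library holds nearly all effector-like barcodes, library and state cannot be told apart there, and each KO value in the effector states rests on few barcodes. The natural killer cell markers Ncr1, Klrb1c and Klre1 took 0.0127% of UMIs in KO and 0.000328% in WT effector-like barcodes. The KO effector-like group may therefore not be Tregs alone. The part of such barcodes in the KO effector-like values below was not tested.

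Over all T-lineage barcodes, 4 of the 9 genes were at least 1.5-fold lower in KO, namely Icos, Pdcd1, Tigit and Havcr2, and none was 1.5-fold higher. Of all 12121 genes with at least 50 UMIs over both libraries, 12.3% were 1.5-fold lower and 6.17% were 1.5-fold higher. The other 5 genes, Ctla4, Cd28, Lag3, Cd96 and Cd200, had ratios between 0.813 and 1.23. Icos and Pdcd1 also had ratios below 1 within resting-like, activated-like and cycling-like barcodes. At the KO mix of clusters, WT levels would put Icos at 0.604 and Pdcd1 at 0.795 of WT. The observed ratios were 0.392 and 0.339. The part of the near absence of effector-like barcodes in KO in these totals was not tested.

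**Figure D1:**
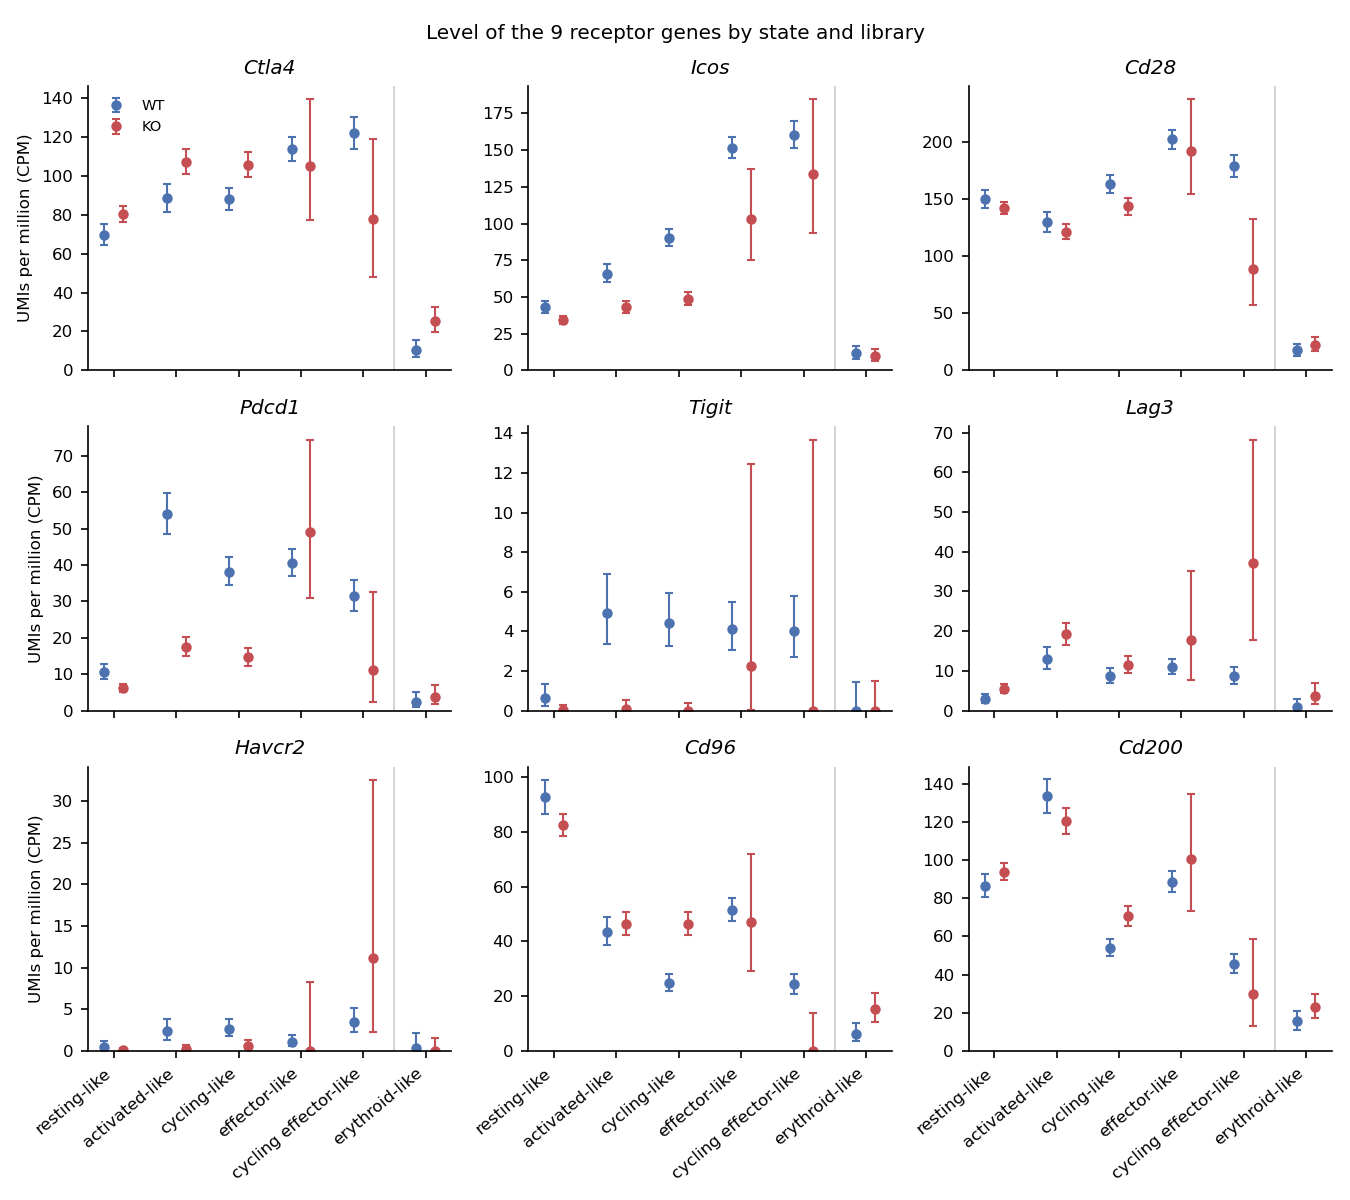
Level of each gene in CPM (vertical axis, linear from 0) in 5 T cell states and in erythroid-like barcodes (right of the grey line), with WT in blue and KO in red and bars for exact Poisson 95% intervals. Icos stood at 152 CPM in WT effector-like and 43.0 CPM in WT resting-like barcodes, whereas Cd96 had its highest level, 92.6 CPM, in the resting-like barcodes.

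Among the CD28 family, Cd28, the main costimulatory receptor, was measured with 7825 UMIs in WT and 6580 in KO. Its level was 166 CPM (163 to 170) in WT and 135 (132 to 138) in KO T-lineage barcodes, a ratio of 0.813 (0.786 to 0.840). Within 4 of the 5 named states the libraries lay closer together. Cd28 stood at 150 CPM in WT and 142 in KO resting-like barcodes, with a ratio of 0.948 (0.889 to 1.01). In activated-like barcodes it was at 130 and 121 CPM, and in effector-like barcodes at 202 and 192. The cycling-like ratio was 0.882 (0.821 to 0.947). In the WT library the effector-like level was the highest of the 5 states, and the activated-like level the lowest. The cycling-like and resting-like intervals overlapped in both libraries. The order in KO was the same but for the cycling effector-like barcodes, whose 24 Cd28 UMIs gave 89.0 CPM (57.0 to 132). The WT level there was 179 CPM, a ratio of 0.499 (0.318 to 0.745), so in that state the libraries lay farther apart.

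Icos, the inducible receptor of the family, followed the effector states most clearly. In WT it ran from 43.0 CPM (39.0 to 47.4) in resting-like through 66.0 (60.0 to 72.4) in activated-like and 90.1 (84.4 to 96.2) in cycling-like to 152 (145 to 159) in effector-like barcodes, and it was 161 (151 to 170) in cycling effector-like barcodes. Each step cleared the intervals of its neighbours except the last. The KO library showed the same order at lower levels, with 34.1, 42.9, 48.7, 103 and 133 CPM, although the activated-like and cycling-like intervals overlapped. The 65 effector-like KO barcodes held 46 Icos UMIs, and their level was 3.02 times (2.19 to 4.07) that of resting-like KO barcodes. The corresponding ratio in WT was 3.53 (3.17 to 3.94). Effector and cycling effector-like barcodes held 60.9% of all Icos UMIs of the WT T-lineage barcodes, and 4.23% of those in KO.

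The KO to WT ratio of Icos over all T-lineage barcodes was 0.392 (0.372 to 0.413), from 102 and 39.8 CPM. It was 0.792 (0.699 to 0.898) in resting-like, 0.650 (0.569 to 0.742) in activated-like, 0.540 (0.483 to 0.604) in cycling-like and 0.677 (0.494 to 0.907) in effector-like barcodes. Thus Icos was lower in KO in each of these 4 states, with intervals below 1. The summed share of 12 effector markers was also lower in KO within states, at 0.192% of UMIs in WT and 0.155% in KO resting-like, 0.312% and 0.139% in activated-like, and 0.626% and 0.202% in cycling-like barcodes, with all 12 markers lower in the latter 2 states. Its part in the Icos ratio was not tested.

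Ctla4, the inhibitory counterpart of Cd28 and a gene that Foxp3 is known to sustain, was nearly level between the libraries. It stood at 96.0 CPM (93.3 to 98.9) in WT and 92.6 (89.9 to 95.3) in KO, a ratio of 0.964 (0.925 to 1.00). Within 3 states it was instead somewhat higher in KO, from 69.7 to 80.2 CPM in resting-like, 88.7 to 107 in activated-like and 88.0 to 106 in cycling-like barcodes. The ratios of 1.15 (1.05 to 1.26), 1.21 (1.10 to 1.34) and 1.20 (1.10 to 1.32) all had intervals above 1. The effector states went the other way, with ratios of 0.921 (0.674 to 1.23) in effector-like and 0.638 (0.393 to 0.982) in cycling effector-like barcodes, from 47 and 21 KO UMIs. In WT the effector-like level of 114 CPM was 1.64 times (1.49 to 1.80) the resting-like level, and these effector states held 48.6% of the WT Ctla4 UMIs. Erythroid-like barcodes, which should lack the gene, held 10.7 CPM in WT and 25.6 CPM in KO. This background therefore also differed between the libraries, and its part in the within-state ratios was not tested.

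Pdcd1, which encodes PD-1, had the lowest ratio among the genes with more than 1000 UMIs. It was at 33.6 CPM (32.0 to 35.3) in WT and 11.4 (10.5 to 12.4) in KO, a ratio of 0.339 (0.307 to 0.374). The WT level was lowest in resting-like barcodes, at 10.6 CPM, and highest in activated-like barcodes, at 54.0 CPM (48.6 to 59.9). The effector-like (40.7), cycling-like (38.1) and cycling effector-like (31.5) levels lay between them. In KO the activated-like level was 17.5 CPM (15.1 to 20.2), below every named WT state but the resting-like. The ratio was 0.324 (0.270 to 0.388) in activated-like, 0.385 (0.316 to 0.467) in cycling-like and 0.580 (0.441 to 0.763) in resting-like barcodes. Effector-like barcodes went the other way, at 40.7 CPM in WT and 49.2 in KO, but the KO value rests on 22 UMIs and the interval of the ratio spans 0.750 to 1.85.

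Tigit and Havcr2 were sparse. The WT library held 164 Tigit UMIs, a level of 3.49 CPM (2.97 to 4.06), whereas the KO library held 6, a level of 0.123 CPM (0.0452 to 0.268). This gave a ratio of 0.0354 (0.0128 to 0.0786). In the WT library its level was similar in activated-like (4.93), cycling-like (4.44), effector-like (4.14) and cycling effector-like (4.04) barcodes, and lower in resting-like barcodes (0.625). In KO, activated-like barcodes held 1 Tigit UMI and cycling-like barcodes held 0 among 9942177 UMIs, which allows a level of up to 0.302 CPM. The activated-like ratio was 0.0193 (0.000474 to 0.115), so the difference was also seen outside the clusters named as effector states. Those barcodes were unlike between the libraries, with 0.312% of UMIs on effector markers in WT and 0.139% in KO. All 45 WT cycling-like Tigit UMIs lay in 1 sub-cluster, where these markers took 0.705% in WT and 0.201% in KO. The part of effector-marked barcodes in the Tigit ratios was not tested. No Tigit UMI was found in erythroid-like barcodes of either library.

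For Havcr2, 90 WT UMIs gave 1.91 CPM (1.54 to 2.35) and 16 KO UMIs gave 0.329 CPM (0.188 to 0.534). The ratio was 0.172 (0.0942 to 0.294). It was 0.0796 (0.00888 to 0.339) in activated-like barcodes, from 16 and 2 UMIs, and 0.226 (0.0764 to 0.560) in cycling-like barcodes, from 27 and 6. All of these cycling-like UMIs lay in 1 sub-cluster, of 429 WT and 95 KO barcodes. Within it the Havcr2 ratio was 1.01 (0.340 to 2.49), so the lower cycling-like level was not seen there. Of the 16 KO UMIs, 3 came from the 21 cycling effector-like barcodes.

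Lag3, an inhibitory receptor that binds MHC class II, stood apart from the other sparse receptors in being higher in KO. It was at 8.65 CPM (7.83 to 9.54) in WT and 10.5 (9.65 to 11.5) in KO, a ratio of 1.22 (1.07 to 1.39). Of the named states it was lowest in resting-like barcodes in both libraries, at 2.92 CPM in WT and 5.48 in KO. The activated-like level was 13 CPM in WT and 19.2 in KO. The ratio was 1.88 (1.23 to 2.96) in resting-like and 1.48 (1.14 to 1.92) in activated-like barcodes, whereas the cycling-like interval of 0.980 to 1.74 included 1. In the erythroid-like barcodes Lag3 was at 0.792 CPM in WT and 3.71 in KO, from 2 and 9 UMIs.

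Cd96, a nectin-binding receptor, was highest in resting-like barcodes, where Icos was lowest. Its level in WT was 92.6 CPM (86.6 to 98.9) in resting-like barcodes, 51.5 in effector-like, 43.6 in activated-like, 24.7 in cycling-like and 24.4 in cycling effector-like barcodes. The resting-like level was the highest in KO as well, at 82.4 CPM (78.3 to 86.5). Over all T-lineage barcodes Cd96 was higher in KO, at 60.9 CPM against 49.4 in WT, with a ratio of 1.23 (1.17 to 1.30), yet within resting-like barcodes it was lower, with a ratio of 0.890 (0.819 to 0.967). In erythroid-like barcodes Cd96 was at 6.33 CPM in WT and 15.3 in KO. Activated-like and effector-like ratios had intervals that included 1. The cycling-like ratio was 1.88 (1.61 to 2.21), but it turned to 0.830 without removal of high doublet scores. The KO cycling effector-like barcodes held 0 Cd96 UMIs of 269694, which allows up to 11.1 CPM, against 175 UMIs in WT.

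Cd200, the ligand of the group, was at 80.4 CPM (77.8 to 83.0) in WT and 92.0 (89.4 to 94.8) in KO, a ratio of 1.15 (1.10 to 1.20). Its level was highest in activated-like barcodes of both libraries, at 133 CPM (125 to 142) in WT and 120 (114 to 127) in KO. It was lowest in cycling effector-like barcodes, at 45.7 and 29.7 CPM. Within activated-like barcodes the ratio was 0.902 (0.827 to 0.984), within resting-like 1.09 (1.00 to 1.18) and within cycling-like barcodes 1.31 (1.17 to 1.47). The cycling-like direction turned without removal of high doublet scores, to a ratio of 0.929. Sub-clusters of the cycling-like state had Cd200 ratios of 0.924 (0.726 to 1.19), 1.98 (1.65 to 2.35) and 0.793 (0.549 to 1.17).

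**Figure D2:**
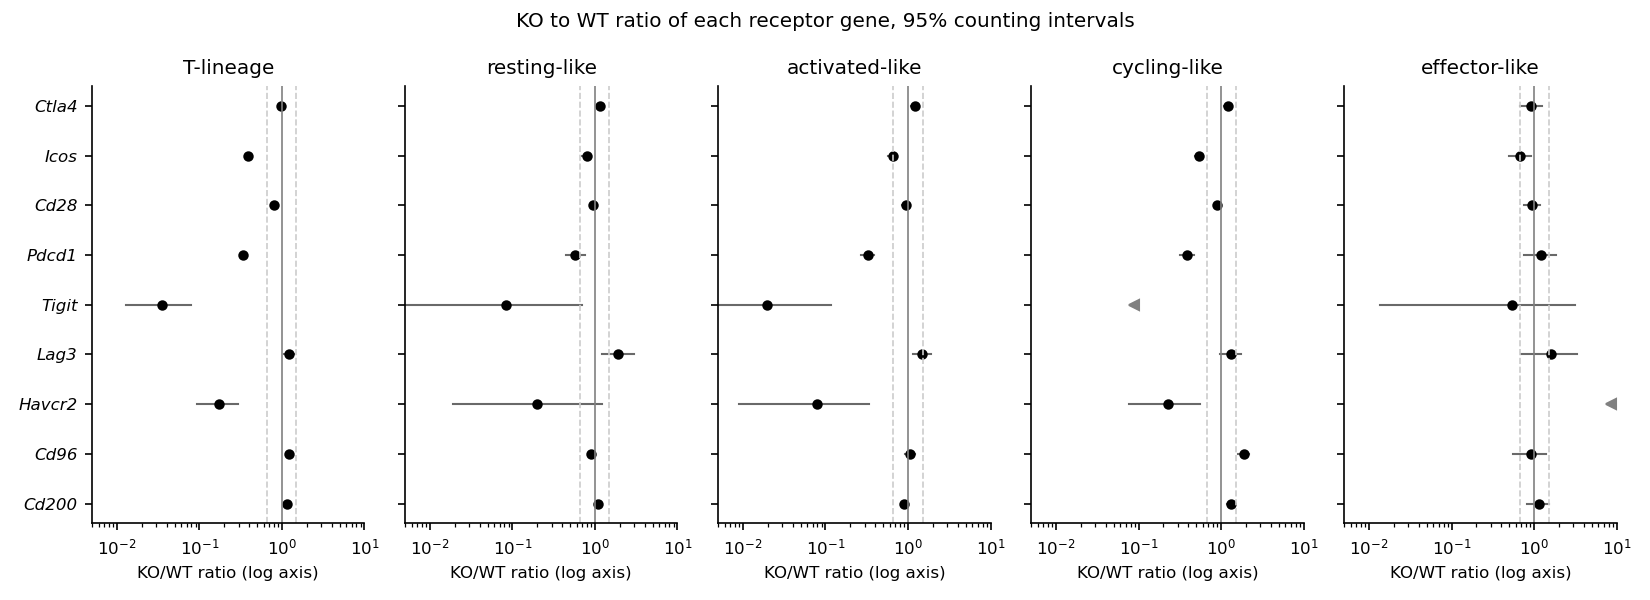
KO to WT ratio of each gene (horizontal log axis, points with exact 95% counting intervals, cut at the axis ends) over all T-lineage barcodes and within 4 states. The solid line marks a ratio of 1, the dashed lines 1.5-fold, and a grey triangle the upper bound where KO had 0 UMIs. Icos and Pdcd1 lie left of 1 in the T-lineage, resting-like, activated-like and cycling-like panels, whereas Cd28 lies between 0.813 and 0.952 in all 5.

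Read state by state against all genes, only genes with 50 UMIs over both libraries were counted, which left out Tigit and Havcr2 in each state. In resting-like barcodes, 1 of the 7 genes (Pdcd1) was 1.5-fold lower in KO where 10.8% of 10274 genes were, and 1 (Lag3) was 1.5-fold higher where 2.68% were. In activated-like barcodes, Icos and Pdcd1 were 1.5-fold lower, against 10.5% of 9479 genes, and 0 of 7 were 1.5-fold higher, against 4.63%. In cycling-like barcodes, Icos and Pdcd1 were again lower, against 8.23% of 9641 genes, and Cd96 was higher, against 8.67%.

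The cycling-like state was not uniform between the libraries, and its ratios were therefore also taken within its sub-clusters at a finer resolution, a step chosen after the data had been seen. The sub-cluster with 429 WT and 95 KO barcodes held 0.705% of its WT and 0.201% of its KO UMIs in effector markers, so its barcodes were unlike between the libraries. The one with 142 WT and 601 KO barcodes held 0.215% and 0.186%. Icos was at 100 CPM in WT and 64.6 in KO in the first (ratio 0.644, 0.527 to 0.780), and at 34.7 and 34.9 CPM in the second (1.01, 0.725 to 1.42). Pdcd1 had ratios of 0.759 (0.567 to 0.999) and 1.24 (0.647 to 2.62). For Cd96 the ratios were 1.38 (0.954 to 1.96) and 0.778 (0.601 to 1.02), both below the 1.88 of the whole state. Ctla4 gave 1.15 (0.981 to 1.35) and 1.32 (1.06 to 1.67). In the third sub-cluster, of 44 WT and 281 KO barcodes, the ratio was 1.37 (0.848 to 2.33) for Icos, 0.307 (0.151 to 0.653) for Pdcd1 and 0.736 (0.506 to 1.10) for Cd96. The resting-like state split likewise. In its sub-cluster with 1728 WT and 1220 KO barcodes Icos had a ratio of 0.858 (0.712 to 1.03) and Pdcd1 of 0.528 (0.325 to 0.832), and in that with 271 and 2093 barcodes 1.09 (0.771 to 1.59) and 0.671 (0.373 to 1.29). The third, with 112 and 1168 barcodes, had ratios of 0.599 (0.406 to 0.913) for Icos and 0.486 (0.163 to 1.95) for Pdcd1. The interval of the Icos ratio thus included 1 in 2 of the 3 resting-like sub-clusters.

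How far the totals moved with the mix of states was computed by giving each library the other's mix. With WT levels held in each cluster and the KO shares of UMIs applied, Icos would stand at 0.604 of its WT level and Pdcd1 at 0.795. With KO levels at the WT mix, Icos stood at 0.691 (0.597 to 0.799) of WT and Pdcd1 at 0.625 (0.480 to 0.815). Cd96 and Cd200 went to 1.21 and 1.13 of WT by the mix alone, close to their observed ratios, and to 0.953 (0.847 to 1.07) and 1.03 (0.934 to 1.15) with KO levels at the WT mix. For Ctla4 the mix gave 0.836 and the KO levels 0.992 (0.896 to 1.10). For Lag3 the mix gave 0.760, whereas the KO levels at the WT mix gave 1.90 (1.41 to 2.57). Tigit (0.655 by the mix) and Havcr2 (0.999) had too few KO UMIs in the effector states, 1 and 3, for the second value to be read. Lag3, Cd96 and Pdcd1 had 18, 21 and 25 KO UMIs there, so their second values also rest on few UMIs. The KO levels in the effector states rest on 65 and 21 barcodes for all genes, and the WT levels in one unnamed cluster on 11. Another unnamed cluster, of 156 shallow WT barcodes, took 14.3% of the KO mix. It held 1 WT UMI of Havcr2 and 0 of Tigit, so the values by the mix cannot be read for these genes either.

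**Figure D3:**
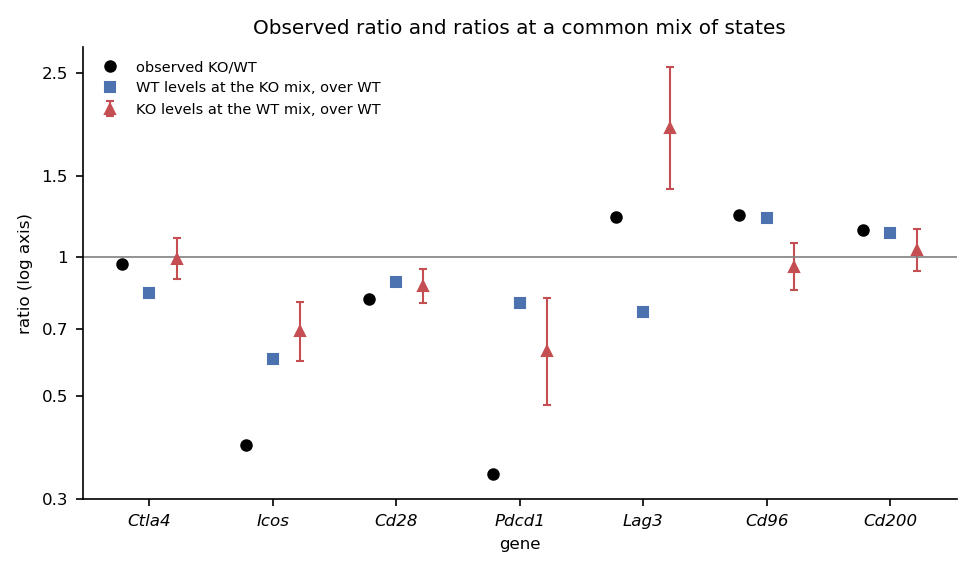
Observed KO to WT ratio (black), ratio of WT levels at the KO mix of clusters to WT (blue squares) and ratio of KO levels at the WT mix to WT (red triangles with 95% counting intervals) for the 7 genes other than Tigit and Havcr2, on a log axis. For Cd96 and Cd200 the blue square lies beside the black point, whereas for Icos and Pdcd1 both the blue and the red value lie between the observed ratio and 1.

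The share of barcodes with a UMI depends on depth, so each barcode was thinned to 1000 UMIs, which left out 1043 shallower WT and 1052 KO barcodes of the T lineage. Icos was then found in 8.19% (7.52 to 8.90) of 6226 WT and 3.57% (3.23 to 3.93) of 10984 KO barcodes, and Pdcd1 in 2.12% and 0.865%. Before thinning the Icos shares were 31.4% and 11.9%, at median depths of 5015 and 2693 UMIs. Cd28 was found in 15.2% and 12.4% of thinned barcodes. Ctla4 (8.27% and 8.11%), Cd96 (6.46% and 6.45%) and Cd200 (8.11% and 8.2%) had shares within each other's intervals. In erythroid-like barcodes, at median depths of 4182.5 UMIs in WT and 2299 in KO, the thinned Icos share was 1.29% in WT and 1.90% in KO, the Ctla4 share 1.72% and 4.23%, and the Cd96 share 0.862% and 3.17%. Pdcd1 was found in 0 of 232 WT (up to 1.29%) and in 0.423% of 473 KO erythroid-like barcodes. Lag3 was found in 0.562% (0.392 to 0.781) of WT and 0.819% (0.659 to 1.01) of KO T-lineage barcodes, with overlapping intervals. Havcr2 was found in 5 WT and 2 KO barcodes, too few to be compared. Tigit was found in 0 of the 10984 thinned KO barcodes, which allows a share of up to 0.0273%, and in 16 WT barcodes, 0.257% (0.147 to 0.417).

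**Figure D4:**
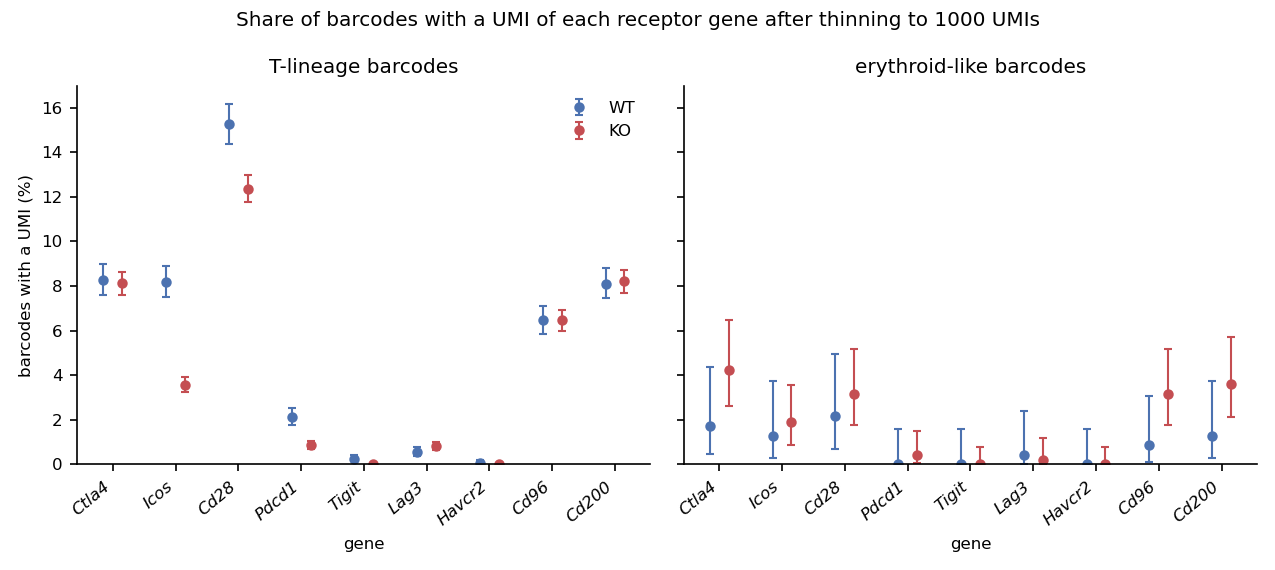
Share of barcodes with at least 1 UMI of each gene (vertical axis, percent) after thinning to 1000 UMIs, in T-lineage barcodes (left) and in erythroid-like barcodes (right), with WT in blue, KO in red and exact Clopper-Pearson 95% intervals. Icos stands at 8.19% in WT and 3.57% in KO on the left, and the erythroid-like shares of Ctla4, Cd28, Cd96 and Cd200 are above 0 in both libraries.

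Of the thinned WT T-lineage barcodes 8.01% (7.35 to 8.72) held UMIs of at least 2 of the 9 genes, against 5.90% (5.47 to 6.36) in KO, and the difference of -2.12 percentage points lay between -2.17 and -2.85 in 4 other thinning draws, which were added after the data had been seen. Within resting-like barcodes the shares were 6.07% in WT and 6.25% in KO, and within effector-like barcodes 11.6% and 12.3% (5.47 to 22.8). In WT, Icos was found in 4.73% (2.87 to 7.28) of the barcodes with a Cd96 UMI and in 8.43% (7.73 to 9.17) of those without, whereas in KO the shares were 3.39% (2.18 to 4.99) and 3.58%. In KO, Lag3 was found in 1.78% (1.02 to 2.87) of the barcodes with a Cd200 UMI and in 0.734% (0.577 to 0.920) of those without, whereas in WT the shares of 0.990% (0.322 to 2.30) and 0.524% had overlapping intervals. Such shares were taken for many ordered pairs of the 9 genes, with no allowance for their number. Both pairs given had intervals that did not overlap in 1 library, and the KO Lag3 share rests on 16 barcodes. The T cell states were pooled, and their part in these shares was not tested. The differences between the libraries were not tested.

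Likeness between genes was described over 16 sums of a T-lineage cluster in 1 library, each with at least 200000 UMIs, by Pearson's r of log2(CPM + 1). These points share libraries and depth, and 8595 genes were ranked. The genes most like Icos were S100a10 (r = 0.95), AW112010 (0.94) and Dera (0.94), of which S100a10 is one of the effector markers. Those most like Cd96 were Cdkal1 (0.98), Lrrc32 (0.97) and Adcy3 (0.96), and Lrrc32 encodes GARP, which presents latent TGF-beta on Tregs. Pdcd1 was most like Actg2 (0.95), Unc119 (0.91) and Mcts2 (0.90), and Cd200 most like Ring1 (0.92), Rgs10 (0.90) and Pisd (0.90). Lag3 had Ints5 (0.90), Mphosph6 (0.89) and Ei24 (0.87) nearest to it. Ctla4 had no gene above 0.66 (Sdhaf2, Samsn1 and Gzmb). Among the 9 genes themselves, Icos and Pdcd1 correlated at 0.71, Cd96 and Cd200 at 0.71, and Icos and Cd96 at -0.53.

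The other genes of these pathways were taken from a list of 44, of which 40 had at least 50 UMIs over both libraries. Over T-lineage barcodes 8 of the 40 were 1.5-fold lower in KO and 1 was 1.5-fold higher, where 12.3% and 6.17% of all genes were. By role, 3 of 10 other receptors, 3 of 10 ligands and 2 of 20 signalling and trafficking genes were lower. The median log2 ratio was -0.50 for other receptors, 0.013 for ligands and -0.041 for signalling and trafficking genes, against -0.068 over all genes. For the other receptors it was -0.082 in resting-like, -0.53 in activated-like and -0.11 in cycling-like barcodes, where all genes had medians of -0.096, -0.076 and 0.027. Lgals3, which encodes galectin-3, a ligand of LAG-3, had the lowest ratio, at 180 CPM in WT and 22.7 in KO (0.126, 0.118 to 0.134). Within effector-like barcodes Lgals3 stood at 144 CPM in WT and 136 in KO (0.948, 0.722 to 1.22), from 61 KO UMIs. Within resting-like barcodes it was at 20.9 and 6.47 CPM (0.309, 0.245 to 0.389). Cd200r1, the receptor of CD200, was at 14 and 5.69 CPM (0.407, 0.353 to 0.470). Cd244a, a receptor of the SLAM family, was at 1.02 and 0.452 CPM (0.443, 0.255 to 0.748), and the collagen receptor Lair1 at 2.83 and 1.27 CPM (0.451, 0.328 to 0.613). The 1 gene past 1.5-fold in the other direction was Tnfrsf14, which encodes the herpesvirus entry mediator that binds BTLA and CD160, at 4.59 and 7.73 CPM (1.68, 1.42 to 2.00). Neither ligand shared by CD28 and CTLA-4 was past 1.5-fold, with Cd80 at 1.32 (0.935 to 1.87) and Cd86 at 1.24 (1.12 to 1.36). The remaining 4 genes past 1.5-fold lower had ratios between 0.492 and 0.631. Within resting-like barcodes 7 of 36 listed genes were lower and 2 higher, where 10.8% and 2.68% of all genes were. In activated-like barcodes 7 of 35 were lower and 2 higher, against 10.5% and 4.63%, and in cycling-like barcodes 5 of 36 were lower and 5 higher, against 8.23% and 8.67%.

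**Figure D5:**
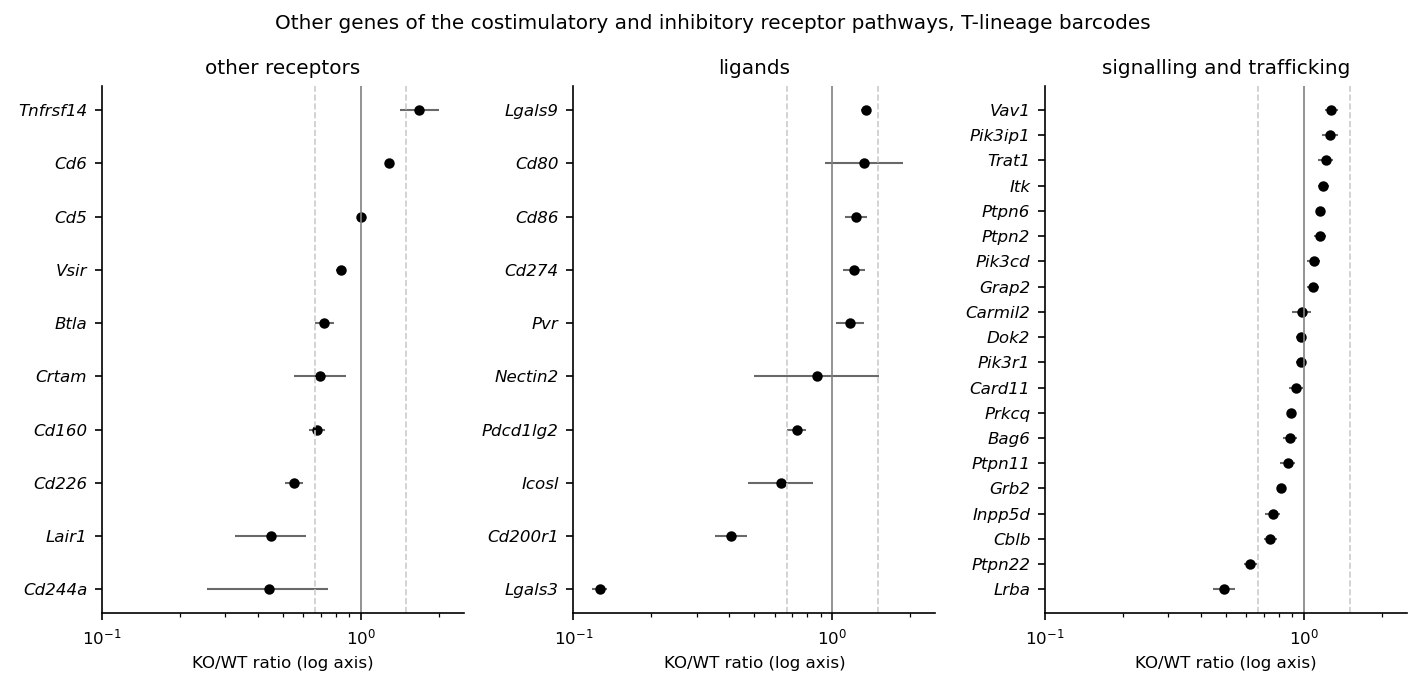
KO to WT ratio over T-lineage barcodes (horizontal log axis, points with exact 95% counting intervals) of the 40 pathway genes with at least 50 UMIs, by role, with dashed lines at 1.5-fold. Lgals3 lies farthest from 1, at 0.126, and Tnfrsf14 is the single gene right of the upper dashed line, at 1.68.

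The ratios over all T-lineage barcodes include the shallow unnamed clusters, among them one of 156 WT and 4232 KO barcodes in which haemoglobin genes took 0.145% of UMIs in WT and 1.17% in KO. Without the 4 unnamed clusters, a choice made after the data had been seen, Icos had a ratio of 0.400, Pdcd1 0.342, Tigit 0.0209, Havcr2 0.169, Ctla4 0.975, Cd28 0.817, Lag3 1.25, Cd96 1.30 and Cd200 1.18. In that KO-held cluster Icos was at 33.6 CPM in KO, near the 34.1 CPM of resting-like KO barcodes, whereas Pdcd1 was at 10.9 CPM, 1.77 times (1.31 to 2.38) the resting-like level of 6.16 CPM.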

How the data were processed

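Splenic YFP+ Tregs had been profiled by 10x Chromium V3 single-cell RNA sequencing, which reads the 3' ends of transcripts, in 1 WT and 1 KO library. The authors deposited raw UMI counts per gene and barcode, made with Cell Ranger 5.0.1 on mm10. The deposited counts were used unchanged. Filters on genes, mitochondrial share and doublets had not been applied before deposit. Barcodes needed 300 genes and at most 5% mitochondrial UMIs. Doublet scores came from the Scrublet routine of scanpy 1.11.5, and the top 5% of WT and 8% of KO barcodes (726 and 1451) were removed. The study's methods give these fractions the other way round.

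The kept barcodes were scaled to 10000 UMIs, log-transformed, reduced to 30 principal components from 2000 variable genes (scikit-learn 1.9.0) and clustered by the Leiden method (igraph 0.11.9) at resolution 0.5 into 15 clusters. The 9 genes, the pathway list, the state markers, and haemoglobin, granule, sex-linked and mitochondrial genes, 190 in all, were left out. No batch correction was run. Cluster names came from marker lists, and the naming table was set after the clusters had been seen. The 9 genes, the lists and the tests were chosen with earlier results of these data known.

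UMIs were summed per library and state and given per 1000000 UMIs of the same barcodes (CPM). They are not scaled by transcript length, so levels of different genes were not compared. CPM have exact Poisson, ratios exact conditional binomial and shares exact Clopper-Pearson intervals at the 95% level, and a count of 0 was taken to allow 3 UMIs. The ratio intervals were tested on simulated independent Poisson counts, the model behind them. That test therefore does not cover spread between barcodes or between libraries. Named genes are the 9, the 4 highest and 4 lowest of the pathway list past 1.5-fold with at least 50 UMIs (Cd80, Cd86 and the promoter set were added after values were seen), and the 3 genes most like each of the 9 with at least 500 UMIs. The genes most like Cd28 are not reported here. Loci are from GENCODE M21, and promoters from RefSeq, with entries for 6 of the 9 genes. The doublet, mitochondrial, depth, normalization, clustering, thinning and fold choices were varied.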

Additional observations from a re-analysis of the deposited data

Results flagged for a closer look

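Some genes had KO to WT ratios on opposite sides of 1 in 2 states, with intervals that did not include 1. Cd96 was lower in KO in resting-like barcodes (ratio 0.890) and higher in cycling-like barcodes (1.88), but the cycling-like ratio was 0.830 without removal of high doublet scores and 0.778 and 0.736 in 2 of its 3 sub-clusters. Cd200 was lower in KO in activated-like barcodes (0.902) and higher in resting-like (1.09) and cycling-like barcodes (1.31). The cycling-like Cd200 ratio was 0.929 without removal of high doublet scores, and 0.924, 1.98 and 0.793 in its 3 sub-clusters. The differences between the states were not tested, since each genotype has 1 library.

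Barcodes over 5% mitochondrial UMIs, 5969 in WT and 3901 in KO after doublet removal, were outside the comparisons. They were not divided by lineage, and the part of their lineage mix in the values below was not tested. Some genes had a higher level there than in the kept T-lineage barcodes of the same library. In KO, Ctla4 was at 118 CPM against 92.6, Icos at 51.7 against 39.8, Cd28 at 234 against 135, Pdcd1 at 16.7 against 11.4 and Cd96 at 74.9 against 60.9. In WT, Cd28 was at 206 CPM against 166 and Cd96 at 56.5 against 49.4. Between the libraries Icos and Pdcd1 were again lower in KO in these barcodes, with ratios of 0.747 (0.652 to 0.854) and 0.585 (0.463 to 0.736), whereas Cd28 was higher, at 1.14 (1.06 to 1.22).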

How the results depend on the processing

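No paired analysis was possible because each genotype has 1 library, and for the same reason no replicate could be left out. Of 72 alternative values of the ratios over T-lineage barcodes, 67 stayed within the counting interval and none was counted as a change of direction. Such a change was counted only where the main interval excluded 1, so it could not be counted for Ctla4. Without the mitochondrial filter Icos moved to 0.428 and Cd28 to 0.848. With the mean of single-barcode CPM, Cd28 moved to 0.849, Cd96 to 1.00 and Cd200 to 1.02, so the higher Cd96 and Cd200 totals depend on summing UMIs. Of the cycling-like ratios, 8 of 55 alternative values moved and 2 changed direction. Without removal of high doublet scores, which changed the barcodes placed in that state, Cd96 was 0.830 and Cd200 0.929, and the cause was not tested. The difference in the share of barcodes with at least 2 of the genes was -0.633 percentage points after thinning to 500 UMIs and -22.1 without thinning, where the deeper WT barcodes enter. At 2-fold, 5 pathway genes were lower and 0 higher in KO. Tigit and Havcr2 are limited by depth, with 6 and 16 KO UMIs.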
